A study of Mus musculus with 3 samples.

Results

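Serpins are a family of proteins that share 1 fold, and most of them inactivate a protease by trapping it in a covalent complex. They were described here on arrays of duct, acinar and ADM cells cut from frozen mouse pancreas by laser, where ADM stands for acinar-to-ductal metaplasia. The members are the genes whose symbol starts with Serpin, with the symbol taken from the RefSeq accession of each probe. Of 69 such genes in the RefSeq table, 60 had a probe, among 21150 named genes on the array. All 3 groups came from wild-type mice, 48 h after caerulein pancreatitis, and the study used 3 mice. Caerulein, a peptide like cholecystokinin, drives acinar cells past their normal secretion and causes pancreatitis. In ADM acinar cells lose acinar features and gain duct features. Each group had 1 array, so no difference has a replicate check and no test between groups was possible. Precision is limited by having 3 arrays. The labels do not say how the cells were recognised, or whether RNA of several mice was pooled for an array. Per its title and design, the study set ADM beside duct and acinar cells in pancreatitis.

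A serpin carries a flexible reactive centre loop that a target protease cuts. The cut makes the serpin change shape, and the protease is dragged across the molecule and held there. Some members have lost this activity and work as hormone carriers, a collagen chaperone or secreted signals. Clade B members lack a classical secretion signal and act mostly inside cells, while members of the other clades are mostly secreted. In the pancreas, where acinar cells store trypsinogen and other protease precursors, trypsin that activates early is known to be checked by inhibitors such as the Kazal inhibitor Spink1, which is not a serpin.

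The promoters of 3 genes with unlike patterns across the arrays are shown as sequence context for the values. Serpini2 was highest on the acinar array, while Serpinb6a and Serpinb9 were lowest there. Each line gives the 250 bases before an annotated start, 5′ to 3′, from RefSeq (GRCm38.p6), with the motif matches in capitals. The window of Serpini2 is chr3:75270079-75270328 (minus strand), that of Serpinb6a, which has another start as well, is chr13:34002795-34003044 (minus strand), and that of Serpinb9 is chr13:33004291-33004540 (plus strand).
Serpini2: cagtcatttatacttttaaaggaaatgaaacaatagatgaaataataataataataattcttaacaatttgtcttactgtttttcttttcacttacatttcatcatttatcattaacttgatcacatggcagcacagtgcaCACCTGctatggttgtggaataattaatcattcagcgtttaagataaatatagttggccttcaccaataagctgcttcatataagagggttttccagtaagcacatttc
Serpinb6a: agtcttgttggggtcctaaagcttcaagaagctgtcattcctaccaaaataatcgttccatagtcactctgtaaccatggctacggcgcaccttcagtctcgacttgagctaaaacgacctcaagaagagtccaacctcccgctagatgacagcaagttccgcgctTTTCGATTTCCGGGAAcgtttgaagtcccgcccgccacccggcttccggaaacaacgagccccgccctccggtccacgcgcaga
Serpinb9: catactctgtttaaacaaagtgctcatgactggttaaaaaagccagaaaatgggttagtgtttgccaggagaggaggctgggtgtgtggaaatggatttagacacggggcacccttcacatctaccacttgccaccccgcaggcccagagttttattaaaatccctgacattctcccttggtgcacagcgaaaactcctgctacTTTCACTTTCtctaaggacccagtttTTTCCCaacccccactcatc
The capitals in Serpini2 are 1 match to CACCTG, an E-box of the kind bound by basic helix-loop-helix factors. It begins 109 bases before the start. The window of Serpinb6a that is not shown also held CACCTG (17 bases) and CAGCTG (86 bases), so CACCTG does not separate these genes. CACCTG was on either strand in 17.2% of 32851 mouse promoter windows of the same length. The capitals in Serpinb6a are a paired GAAA motif (GAAA, any 2 bases, GAAA) on the reverse strand, 84 bases before the start, and TTCNNNGAA, 77 bases before it, which overlap. Those in Serpinb9 are the paired GAAA motif on the reverse strand (46 bases) and TTTCCC (20 bases). That motif resembles the interferon-stimulated response element. It was in 2 of 58 serpin promoter windows, those shown for Serpinb6a and Serpinb9, against 2.98% of all windows. Serpinb6b, Serpinb6c, Serpinb6d, Serpinf1 and Serpinh1 were also lowest on the acinar array, and their windows lack it. The motif is thus not shared by the genes with that pattern. Of the other motifs searched on both strands, CAGCTG was in 7 of the 58 (12.1%, against 13% of all), TTTCCC in 12 (20.7% against 21.9%), TTCNNNGAA in 9 (15.5% against 7.02%) and CACCTG in 13 (22.4%). The 58 windows belong to 49 of the 60 genes, so some genes have several overlapping windows. A match describes these letters and is not shown to be a site.

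Levels are log2 signals on a scale where 0 is the 75th percentile of the array, and a level describes 1 probe, so levels are compared between arrays and not between genes. A probe counts as detected where the scanner software called it well above background. Probes detected made up 49.7% of 55664 on the ADM array, 50% on duct and 40.7% on acinar, and the lowest detected level was −3.15, −3.28 and −2.04. No spot was saturated, and the SD between repeat spots had a median of 0.119 to 0.189 log2 units, an error of the array measurement alone. The acinar and duct labels matched their markers. On the duct array, 15 of 15 acinar markers were at least 2-fold below the acinar array, and 12 of 13 duct markers at least 2-fold above it. In ADM against acinar, 7 of 13 duct markers were higher and 2 lower, and 13 of 15 acinar markers were lower and 0 higher. Over all genes, 21.8% were higher and 22.0% lower in that comparison. The chloride channel Cftr was not detected on any array. Most acinar markers were still detected in duct (14 of 15).

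Of the 60 serpins, 32 were detected on at least 1 array and 19 on all 3. By array the number was 30 (50%) in ADM, 25 (41.7%) in duct and 22 (36.7%) in acinar, beside 61.3%, 61.3% and 50.9% of all named genes. The other 28 were detected on none and are not described further. Among them were Serpina3n, an antichymotrypsin-like serpin of the acute phase, Serpinc1 (antithrombin), Serpind1 (heparin cofactor), the thyroxine carrier Serpina7, and 14 clade B genes. In the family's largest gene cluster, on chromosome 12, 22 genes had a probe. The ADM array detected 11 of them, the duct array 7 and the acinar array 5. Serpina1a, Serpina1e, Serpina5 and Serpina9 were detected in ADM at levels below the lowest detected level in acinar (−2.04). The counts of the arrays are thus not like for like. In the clade B clusters, 8 of 15 genes were detected on at least 1 array for chromosome 13 and 6 of 14 for chromosome 1, a chromosome count that takes in Serpine2 and Serpinc1, which are not clade B. Serpina1, Serpina3, Serpinb3, Serpinb6 and Serpinb9 each have related paralogues in the mouse, and whether a probe of 1 also binds another was not tested.

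**Figure D1:**
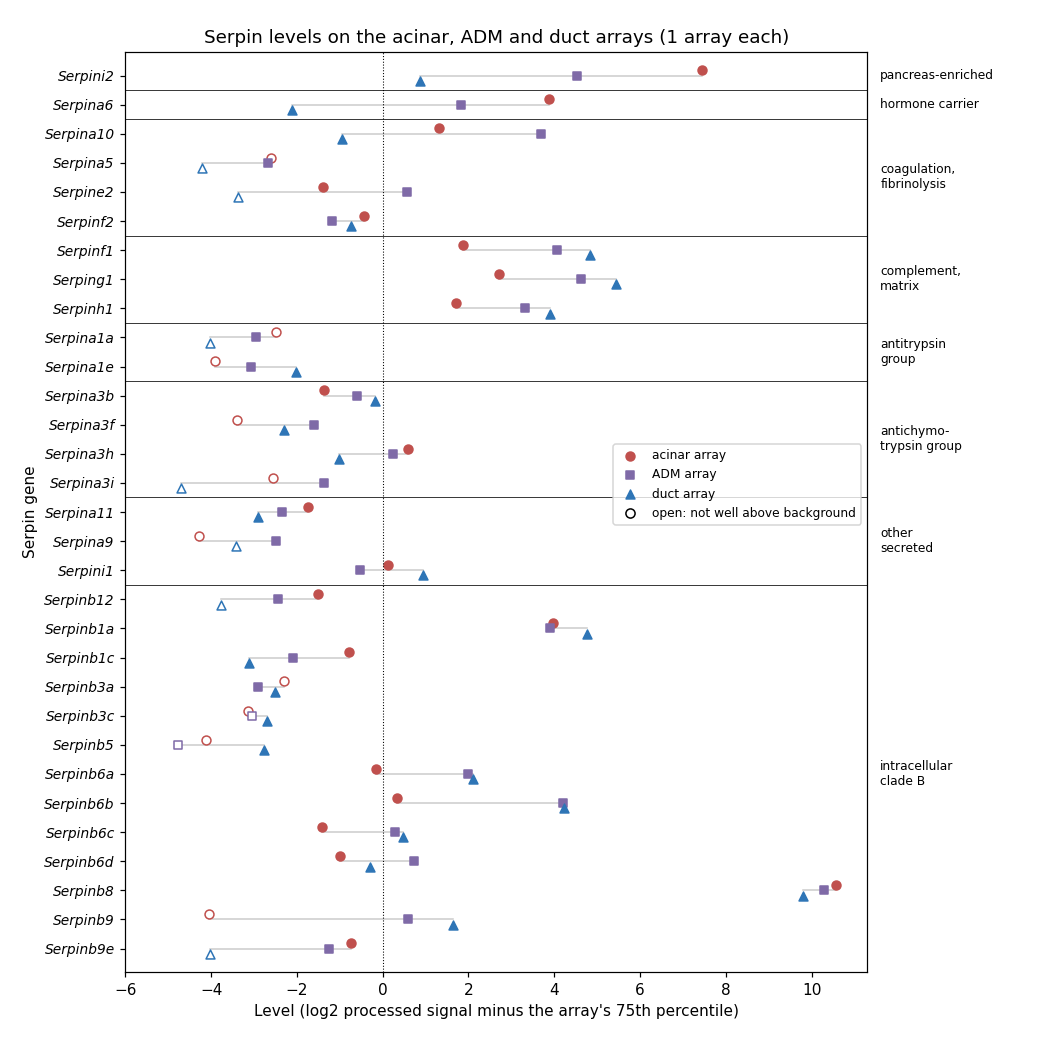
Level of the detected serpins named in the text on the acinar (circles), ADM (squares) and duct (triangles) arrays, in log2 units with 0 at the array's 75th percentile, grouped by role. Open symbols were not well above background. Serpini2 lies at 7.44 in acinar and 0.86 in duct, and Serpinf1, Serping1 and Serpinh1 run the other way.

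Comparison of a gene required detection of its probe on at least 1 array of the pair. Where the dim side was not detected, the lowest detected level of that array stood in for it, unless the probe's own signal was higher. Such a difference is a bound, written "at least", and a bound that crossed 0 was set to 0. A gene was counted at a 2-fold difference. In duct against acinar, 8 of 28 serpins were higher (28.6%, against 27.4% of 13826 genes) and 9 were lower (32.1%, against 24.6%). In either direction it was 17 of 28 (60.7%, against 52.0%). In ADM against acinar, 10 of 30 were higher (33.3%, against 21.8% of 13632 genes) and 3 were lower (10%, against 22.0%), in all 43.3% against 43.8%. In ADM against duct, 9 of 32 were higher (28.1%, against 21.6% of 14475 genes) and 3 were lower (9.38%, against 24.8%), in all 37.5% against 46.4%. The median serpin difference was 0.00, 0.00 and 0.17 log2 units in these comparisons, beside 0.00, 0.00 and −0.05 over all genes. The comparisons share arrays and are not independent of each other.

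The split between higher and lower moved with the scaling. With the array's median in place of the 75th percentile, the differences of genes detected on both arrays moved by 0.39 (duct minus acinar), 0.23 (ADM minus acinar) and −0.16 (ADM minus duct). The serpin counts were then 12 higher and 8 lower in duct against acinar, and 7 higher and 4 lower in ADM against duct. Of the serpins 2-fold apart, 9 of 17 in duct against acinar, 8 of 13 in ADM against acinar and 4 of 12 in ADM against duct kept direction and stayed past 2-fold under every alternative that gave a value, though the size moved (Serpinb9 from 1.71 to 5.70 log2 units in duct minus acinar). The 9 were Serpini2, Serpina6, Serpina10, Serpinf1, Serping1, Serpinh1, Serpinb6a, Serpinb6b and Serpinb9. For a gene with 1 probe detected on both arrays, only other scaling and normexp could change the value. This holds for Serpini2, Serpinh1, Serpinb6a and Serpinb6b, so for them the other alternatives were no check.

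**Figure D2:**
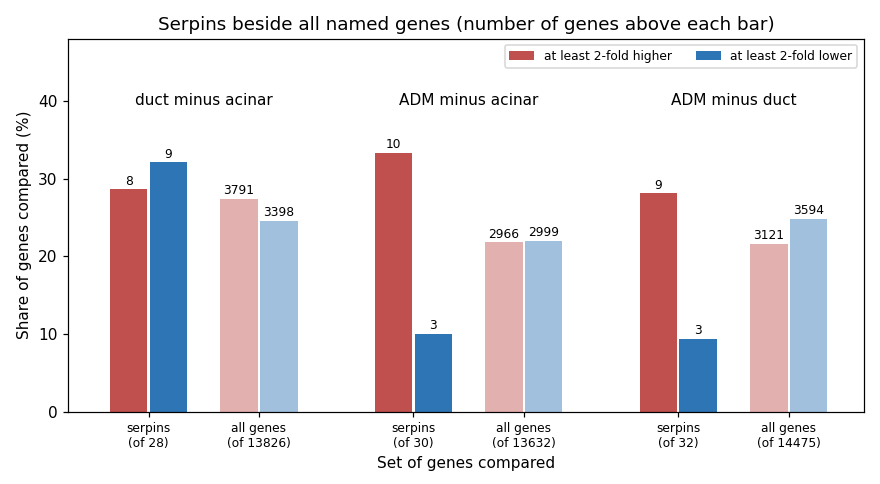
Share (%) of the genes compared that were at least 2-fold higher (red) or lower (blue), for serpins (full colour) and all named genes (pale), with the number of genes above each bar. In ADM against acinar 10 serpins were higher and 3 lower, beside nearly even shares of all genes (2966 and 2999).

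Serpini2, a secreted serpin known for its expression in the exocrine pancreas, was at 7.44 in acinar, 4.53 in ADM and 0.86 in duct. The 3 arrays were thus well apart, with ADM in between. It was 7.52-fold lower in ADM than in acinar, 95.4-fold lower in duct than in acinar and 12.7-fold higher in ADM than in duct. On the log2 scale, ADM lay 44.3% of the way from acinar to duct. All 3 differences kept direction and 2-fold under each of the 7 alternatives that gave a value. Only other scaling and normexp could change them, as the gene has 1 probe, detected on all 3 arrays.

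Serpina6 encodes corticosteroid-binding globulin, the plasma carrier of glucocorticoids. Its level was 3.88 in acinar, 1.82 in ADM and −2.12 in duct, the same order as for Serpini2. Duct was 64.2-fold lower than acinar, ADM was 4.18-fold lower than acinar, and ADM was 15.4-fold higher than duct. A separate probe of the gene gave 4.38, 1.77 and −2.78, so the order was the same and the duct difference larger (−7.16 against −6.0 log2 units). ADM lay 34.4% of the way from acinar to duct with the brighter probe. Acinar transcripts ran beside both genes. The summed signal of 15 acinar markers was 33000 times the 75th percentile in acinar, 9210 in ADM and 1540 in duct, and 13 of the 15 were lower in ADM than in acinar. The part of acinar transcript content in these serpin differences was not tested. In samples of many cells, fewer cells of a type and less RNA per cell cannot be told apart.

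Inhibitors of coagulation and fibrinolysis had unlike patterns. Of 7 genes, 5 were detected on at least 1 array, and in ADM against acinar 2 were higher and 0 lower (21.8% and 22.0% of all genes). Serpina10, the protein Z-dependent inhibitor of coagulation factor Xa, was at 3.69 in ADM, 1.32 in acinar and −0.95 in duct. The ADM array was the highest of the 3. ADM exceeded acinar 5.18-fold and duct 24.9-fold, and duct was 4.81-fold lower than acinar. The other probe of Serpina10 was detected in ADM alone (2.23), at least 4.28 log2 units above acinar and at least 5.51 above duct. Serpina10 is known as a liver product. Of 9 hepatocyte markers, 5 were detected in ADM, 4 in duct and 4 in acinar, and Alb, Apoa1, Apob and Fgb on no array. Ahsg was detected in ADM alone (−2.52), below the lowest detected level in acinar (−2.04). The hepatocyte markers' summed signal was 9.67 in ADM, 14.6 in duct and 19.3 in acinar. In ADM against acinar, 1 of 5 hepatocyte markers compared was higher and 2 were lower (21.8% and 22.0% of all genes). The higher one was Tat, tyrosine aminotransferase, at 1.30 in ADM, −2.26 in duct and −1.26 in acinar. The lower ones were Apoa2 (−2.01 log2 units in ADM minus acinar) and Cyp2e1 (−1.07). The part of liver transcripts in the Serpina10 result was not tested.

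Serpine2, protease nexin, inhibits thrombin and urokinase at the cell surface and in the matrix. Its probe was at 0.56 in ADM and −1.40 in acinar and was not detected in duct (−3.38). ADM was at least 14.3-fold above duct and 3.89-fold above acinar, and duct was at least 3.68-fold below acinar. Normexp background correction brought the differences with acinar under 2-fold (0.74 for ADM and −0.77 for duct), and the difference between ADM and duct stayed above it at no less than 1.51 log2 units. Serpinf2, which inactivates plasmin, was at −1.18 in ADM, −0.73 in duct and −0.43 in acinar, within 2-fold in each comparison. Serpina5, the protein C inhibitor, was detected in ADM alone, at −2.68, and its bounds were under 2-fold. That level lay below the lowest detected level in acinar (−2.04), where its signal was −2.61.

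The plasminogen system holds targets of Serpine2 and Serpinf2, and Plg, the plasminogen gene, was not detected on any array. Of 8 genes compared between duct and acinar, 5 were higher in duct and 1 was lower (27.4% and 24.6% of all genes). In ADM against acinar 1 of 8 was higher and 1 was lower (21.8% and 22.0% of all genes). Vtn, the matrix protein vitronectin, was the lower gene both times, at 3.70 in acinar, 2.00 in ADM and −0.95 in duct. The higher gene in ADM was Thbs1, thrombospondin, at 3.12 in ADM and undetected in acinar (at least 5.17 log2 units). Plau, the urokinase that Serpine2 inhibits, was at 4.04 in duct, 2.80 in acinar and 2.45 in ADM, and its receptor Plaur was at least 1.81 log2 units higher in duct than in acinar.

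Coagulation factors and receptors divided as well. In ADM against acinar 7 of 12 were higher and 1 was lower, beside 21.8% and 22.0% of all genes. In duct against acinar 5 of 13 were higher and 2 lower, beside 27.4% and 24.6% of all genes. F3, tissue factor, which starts coagulation, was at 4.67 in duct, 1.70 in ADM and −0.37 in acinar. F10, the gene of factor X, was not detected on any array. Proc, the protein C that Serpina5 inhibits, was detected in ADM (2.11) and duct (−2.89) but not in acinar. Its duct level lay below the lowest detected level in acinar (−2.04). ADM was 5.0 log2 units above duct and at least 4.16 above acinar. F13a1, a transglutaminase subunit that macrophages also make, was at 1.90 in ADM, −2.01 in duct and −1.93 in acinar. Beside it, 12 of 15 macrophage markers exceeded acinar on the ADM array, and 0 were lower. The list also holds Vwf, a marker of endothelium, which was at least 21.2-fold above acinar in duct and 7.93-fold in ADM. Of the endothelial markers, 7 of 10 exceeded acinar in duct and 6 of 9 in ADM. The part of either cell type in these counts was not tested.

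Serping1, Serpinf1 and Serpinh1 shared a pattern, with all 3 higher in both duct and ADM than in acinar. Serping1, the C1 inhibitor that blocks the first complement proteases and plasma kallikrein, was at 5.45 in duct, 4.63 in ADM and 2.70 in acinar. Duct was 6.69-fold and ADM 3.8-fold above acinar. Serpinf1 encodes pigment epithelium-derived factor, a secreted serpin without inhibitory activity that restrains vessel growth. It was at 4.83 in duct, 4.07 in ADM and 1.87 in acinar, which put duct 7.81-fold and ADM 4.59-fold above acinar. Serpinh1, the collagen chaperone HSP47 of the endoplasmic reticulum, was at 3.90 in duct, 3.31 in ADM and 1.72 in acinar, or 4.54-fold and 3.00-fold above acinar. In ADM against duct the 3 genes were within 2-fold, at −0.82, −0.77 and −0.60 log2 units. ADM lay 70.3%, 74.2% and 72.7% of the way from acinar to duct.

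For Serpinf1 the other probe was detected in duct (4.02) and ADM (3.30) but not in acinar, at least 6.07 and 5.35 log2 units higher. For Serping1 it was likewise detected in ADM (1.13) and duct (0.90) alone, at least 3.17 and 2.94 above acinar. The directions matched between probes of both genes. Serpinh1 had 1 probe. These 3 genes kept direction and 2-fold against acinar under every alternative run. For Serpinh1 only other scaling and normexp could change the value.

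Fibroblast markers ran beside this group. Against acinar, 12 of 16 were higher and 2 lower in duct, and 12 of 15 were higher and 1 lower in ADM. For this and the other lists here, the shares over all genes were 27.4% higher and 24.6% lower in duct, and 21.8% and 22.0% in ADM. Their summed signal was 379 times the 75th percentile in ADM, 371 in duct and 95.3 in acinar. The lower fibroblast markers were Acta2 in ADM (12.3-fold) and, in duct, Fap (7.87-fold) and Postn (at least 2.74-fold). Thy1 and Mmp2 were detected in duct and ADM but not in acinar, and Des in duct alone. Col1a1, Col1a2, Dcn and Pdgfrb were detected on all 3 arrays. Endothelial markers ran the same way, with 7 of 10 higher and 1 lower in duct and 6 of 9 higher and 1 lower in ADM, and sums of 20.6 in ADM, 40.7 in duct and 16.4 in acinar. The endothelial gene Tek was detected on no array. The part of fibroblast or endothelial content in the differences of Serping1, Serpinf1 and Serpinh1 was not tested. Among collagens and collagen-modifying enzymes, duct exceeded acinar in 9 of 18 and was lower in 4, and ADM exceeded it in 10 of 19 and was lower in 3. Col5a1 was 5.37 log2 units higher in duct and 5.53 in ADM, and P4ha2, a collagen prolyl hydroxylase subunit, at least 5.15 and 3.15. Fkbp10, a collagen-folding chaperone like Serpinh1, was 2.16 and 2.44 higher. P4hb, a folding enzyme that also serves other secreted proteins, was lower (−2.63 and −2.57). Of the proteases that Serping1 inhibits, C1ra was at 4.02 in ADM, 3.68 in duct and 2.39 in acinar, and C1s1 at 1.24, −0.21 and −1.33, so both were higher in ADM and duct than in acinar. C1rl, a related protease, ran the other way, at 3.31 in acinar, 1.66 in ADM and 0.02 in duct. The list of C1 and lectin pathway proteases thus had 2 higher and 1 lower of 4 in duct and 2 higher and 1 lower of 3 in ADM.

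**Figure D3:**
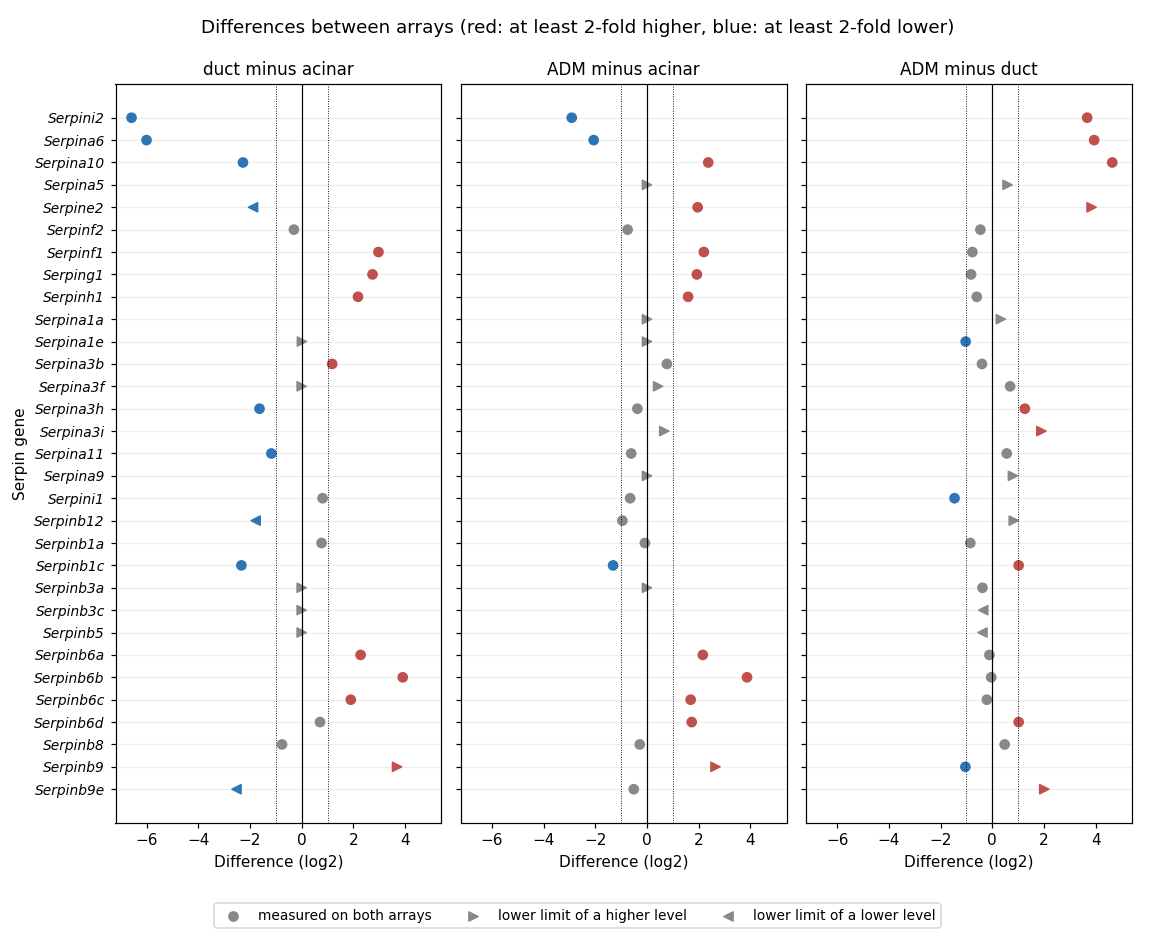
Differences (log2) of the detected serpins named in the text in duct minus acinar, ADM minus acinar and ADM minus duct. Circles were measured on both arrays, triangles are limits on the size of a difference and point in its direction, and dotted lines mark 2-fold (red higher, blue lower, grey within). Serpinb6b, Serpinf1 and Serping1 are higher in duct and in ADM than in acinar, and ADM minus duct is −0.04, −0.77 and −0.82 for them.

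Of the 27 clade B genes on the array 13 were detected. In duct against acinar 4 of 13 compared were higher and 3 lower, near the shares of all genes (27.4% and 24.6%). In ADM against acinar 5 of 11 were higher and 1 was lower, beside 21.8% and 22.0% of all genes. The Serpinb6 genes, whose human counterpart inhibits granulocyte cathepsin G, made up 4 of the 5. Serpinb6b was at 4.23 in duct, 4.20 in ADM and 0.33 in acinar. ADM and duct were alike in level (−0.04 log2 units apart), and they were 14.6-fold and 15.0-fold above acinar. Serpinb6a was at 2.11 in duct, 2.00 in ADM and −0.16 in acinar, or 4.84-fold and 4.48-fold above acinar. Its promoter, printed above, is 1 of the 2 with the paired GAAA motif, and its other window lacks it, as does that of Serpinb6b.

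Serpinb6c was at 0.48, 0.28 and −1.42 in duct, ADM and acinar, and its other probe gave 0.13, 0.36 and −1.52. ADM exceeded acinar by 1.69 and 1.88 log2 units with these probes. Serpinb6d stood at 0.72 in ADM, −0.29 in duct and −1.0 in acinar. ADM exceeded acinar 3.31-fold, and the gene was within 2-fold between duct and acinar (0.71, or 1.1 with median scaling). With normexp the ADM differences of Serpinb6c and Serpinb6d from acinar were both 0.64, and the duct difference of Serpinb6c was 0.79, all under 2-fold. The Serpinb6 genes lie on chromosome 13, with Serpinb9 between Serpinb6b and the others. They are closely related in sequence, so these 4 probes may not be independent measurements.

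Serpinb9 inhibits granzyme B and protects cells from their own or neighbouring cytotoxic granules. Its level was 1.64 in duct and 0.60 in ADM, and it was not detected in acinar (−4.05). Duct was at least 12.9-fold and ADM at least 6.26-fold above acinar, and ADM was 2.06-fold below duct, a difference of −1.04 log2 units that came under 2-fold with another percentile for scaling (−0.96). With normexp the ADM difference from acinar was 0.91. Its target Gzmb was detected in acinar alone, at −1.60. Gzma, another granzyme, was at 0.43 in ADM and 0.31 in duct and undetected in acinar. Of 10 T and NK cell markers compared in ADM against acinar, 5 were higher and 3 lower, and their summed signal was 12.9 in ADM, 8.65 in duct and 10.3 in acinar. In duct 3 of 15 macrophage markers exceeded acinar and 7 were lower. Their summed signal was 1090 in ADM, 618 in duct and 1450 in acinar, and it ran with Itgam (9.54, 9.07 and 10.41). Cd163 was detected nowhere. Of 6 neutrophil markers compared in ADM against acinar, 2 were higher and 1 lower. Beside these lists, 21.8% of all genes were higher and 22.0% lower in ADM than in acinar, and 27.4% and 24.6% in duct. The part of immune cell content in the Serpinb6 and Serpinb9 differences was not tested.

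Serpinb1a, a leukocyte inhibitor of neutrophil elastase, was at 4.76 in duct, 3.98 in acinar and 3.91 in ADM, within 2-fold in every comparison. The excess of duct over acinar (0.77) passed 2-fold with median scaling (1.16) and normexp (1.46), as did ADM minus duct (−1.01 and −1.03). Serpinb8, an inhibitor of furin-like and other proteases, was at 10.57 in acinar, 10.29 in ADM and 9.81 in duct. It was far above the 75th percentile on each array and varied by at most 0.76 log2 units. Its only probe gives no second reading. Serpinb1c ran opposite to the Serpinb6 genes, at −0.79 in acinar, −2.10 in ADM and −3.12 in duct, 5.01-fold lower in duct than in acinar. Its 3 differences came under 2-fold with normexp. Serpinb9e was detected in acinar (−0.75) and ADM (−1.26) but not in duct, and its other probe was detected in duct alone (−3.17), which set the bounds to 0, so its pattern rests on the brighter probe. With normexp its ADM minus duct difference was 0.75, under 2-fold. Serpinb12 was detected in acinar (−1.50) and ADM (−2.45), at least 3.43-fold lower in duct than in acinar, a difference that normexp brought to −0.89. Serpinb3a, Serpinb3c and Serpinb5, the last known as maspin, were detected in duct at −2.52 to −2.77, near the detection limit. Their bounds against an undetected array were under 2-fold, which sets no upper limit on the difference.

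The alpha-1-antitrypsin and antichymotrypsin groups, which the liver secretes in large amounts and which inhibit neutrophil elastase, cathepsin G and related proteases, were detected in few members. Of 5 Serpina1 genes, 2 were detected. Serpina1e was at −2.03 in duct and −3.06 in ADM, and Serpina1a was detected in ADM alone at −2.95. The Serpina1a level lay below the lowest detected level in acinar (−2.04), where its signal was −2.48. Of 10 Serpina3 genes, 4 were detected. Serpina3h, annotated as a transcribed pseudogene, was at 0.60 in acinar, 0.23 in ADM and −1.03 in duct, 3.09-fold lower in duct than in acinar. Serpina3b was at −0.19 in duct, −0.60 in ADM and −1.37 in acinar, which put duct 2.27-fold above acinar. Serpina3i was detected in ADM alone (−1.38), at least 3.73-fold above duct. Serpina3f was detected in ADM (−1.61) and duct (−2.30), within 2-fold. Each 2-fold difference in these groups came under 2-fold with normexp, and Serpina1e then stood at 0.03 in ADM minus duct.

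Among the other secreted serpins, Serpini1, the neuroserpin that inhibits tissue plasminogen activator in nerve tissue, was at 0.95 in duct, 0.13 in acinar and −0.52 in ADM. It was 2.76-fold lower in ADM than in duct (−1.46 log2 units, −0.93 with normexp), and duct minus acinar was 0.81, or 1.20 with median scaling. Between ADM and duct, 4 of 6 nerve and Schwann cell genes were lower and 0 higher in ADM (24.8% and 21.6% of all genes). The sums of these nerve genes were 29.6 in ADM, 49.6 in duct and 38.1 in acinar. Their part in the result was not tested. Serpina11 was at −1.74 in acinar, −2.35 in ADM and −2.91 in duct, 2.25-fold lower in duct than in acinar, and came under 2-fold with median scaling (−0.78) and normexp (−0.59). Serpina9, a serpin of germinal centre B cells, was detected in ADM alone (−2.48), below the lowest detected level in acinar (−2.04).

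**Figure D4:**
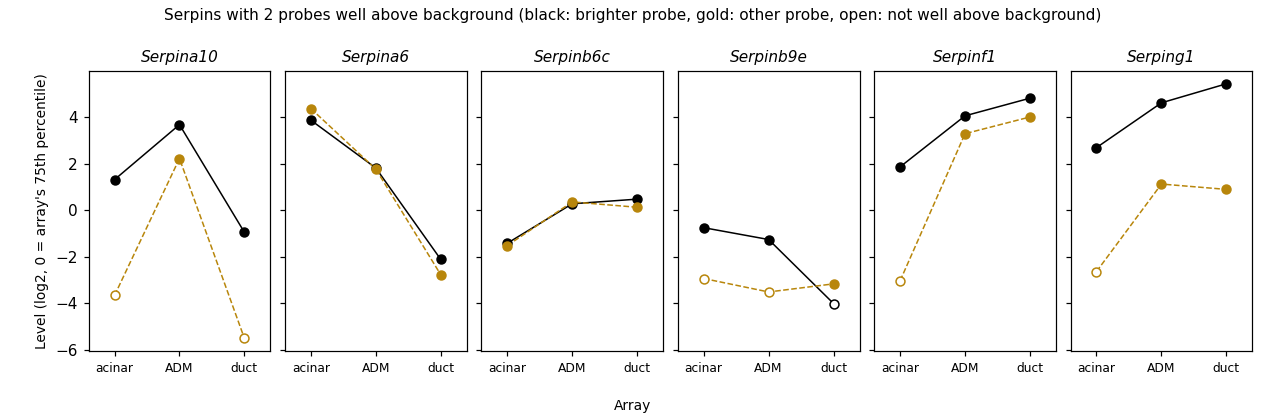
Levels (log2, 0 at the array's 75th percentile) of both probes of the 6 serpins with more than 1 detected probe, on the acinar, ADM and duct arrays. Black is the brighter probe and gold the other, filled points were detected and open ones were not. For Serpina10 both probes are highest in ADM, at 3.69 and 2.23, and for Serpinb9e the probes differ in duct.

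Of the 60 serpins, 15 had more than 1 probe, and in 6 the other probe was detected on at least 1 array. In 0 of them did it oppose the brighter probe by 2-fold. For Serpinb9e the other probe could not count as opposing, since its bounds were set to 0. Proteases that serpins inhibit and inhibitors of other families were counted as well. All 11 pancreatic serine proteases compared were lower in duct and in ADM than in acinar, with medians of −6.23 and −2.07 log2 units, and Cela1, an elastase, was lowest against acinar (−8.43 and −4.14). Of 10 cysteine cathepsins, some of which clade B serpins inhibit, 7 exceeded acinar in ADM and 0 were lower, with Ctsw 4.0 and Ctss 2.74 log2 units higher. In duct 3 of the 10 exceeded acinar and 1 was lower. Leukocyte and mast cell granule proteases, among the main targets of clade A and B serpins, were higher in 2 and lower in 2 of 5 genes in ADM against acinar. Membrane and matrix serine proteases were higher in 1 and lower in 4 of 9, with Tmprss4, undetected in ADM, at −2.63 log2 units or below. Over all genes, 21.8% were higher and 22.0% lower in ADM than in acinar, and 27.4% and 24.6% in duct.

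Of 25 inhibitors of other families, 6 exceeded acinar in ADM and 10 were lower (21.8% and 22.0% of all genes). Between duct and acinar 10 of 26 were higher and 8 lower (27.4% and 24.6% of all genes). Spink1 was at 10.20 in acinar, 8.5 in ADM and 3.87 in duct, the order found for Serpini2 and Serpina6. Timp3, an inhibitor of matrix metalloproteinases, was at 3.07 in ADM and 1.07 in duct and undetected in acinar (at least 5.12 and 3.12 log2 units). Itih2, a hyaluronan-binding inhibitor chain, was at 1.32 in acinar and −3.06 in duct and undetected in ADM, a difference from acinar of −4.38 in duct and of −4.47 or below in ADM. Wfdc18, a secreted protein of the whey acidic family, was 5.07 higher in duct and 2.78 higher in ADM than in acinar.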

How the data were processed

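The authors hybridised Cy3-labelled cDNA, amplified from total RNA, to 1-colour Agilent mouse arrays, 1 per cell type, all 3 on 1 slide. The deposited spot intensity came from version 11.5.1.1 of Agilent Feature Extraction after background subtraction and detrending, with no scaling between arrays, per the file headers, beside flags of other kinds (well above background, outlier, saturated). The deposited value table holds log2 values (column medians −0.56, −0.63 and −0.57 for ADM, duct and acinar), each array shifted from the scanner values by a single constant, −6.17, −6.58 and −5.13. These constants are close to minus the log2 of each array's 75th percentile signal (72.2, 95.7 and 35.2). The deposited values thus hold nearly the same scaling as the main setting.

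Controls and outlier spots were left out, repeat spots were averaged on the log2 scale, and each array's 75th percentile was subtracted. Of 55664 probes, 28020 were named by RefSeq accession from the GRCm38.p6 table, used for names only since the probes were annotated on mm9. The probe with the highest mean stood for its gene. Members and lists were chosen with earlier results of these data known. Detected serpins were named, except 1 that is counted but not reported here, and from each list up to 6 genes a comparison. Protein sequences were not used here. Alternatives were other scaling, normexp (limma 3.58.1, offset 50), filters, probe rules and the deposited table, and the steps were tested on simulated data.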

Additional observations from a re-analysis of the deposited data

How the results depend on the processing

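With 1 array per group no replicate could be left out, and no paired analysis was possible because each group has 1 array. Depth is set by signal over background: with normexp on the spots' median signals, an alternative chosen after seeing the data in place of the planned mean signals, serpins 2-fold apart numbered 11 of 28 in duct against acinar (4 lower), 8 of 30 in ADM against acinar (6 higher) and 5 of 32 in ADM against duct (4 higher, 1 lower), and Serpina1e turned to 0.03 in ADM minus duct. The offset of 50 draws low signals together by its construction. With no filter, which adds the 28 undetected serpins, they numbered 46 (35 lower, median −1.26), 37 (24 lower, median −0.71) and 18 (5 lower). With genes detected on both arrays the medians were 0.71, 0.31 and −0.11. The second-brightest probe gave 4 of 5 genes (3 higher, 1 lower, median 1.64), 5 of 5 (4 higher, 1 lower, median 3.17) and 2 of 6 (2 higher, 0 lower), with fewer genes compared. The 75th percentile over probes detected on all 3 arrays left 1 serpin lower in ADM than in duct. The mean of a gene's probes and the deposited table gave the same serpin counts as the main setting (17, 13 and 12). For the deposited table this was fixed in advance, as it holds nearly the same scaling. Over all genes, normexp gave 1494 lower in duct against acinar (3398 in the main setting), 1681 higher and 927 lower in ADM against acinar (2966 and 2999), and 1472 higher and 2147 lower in ADM against duct (3121 and 3594). Detection on both arrays gave 2353 higher (3791), 1747 higher and 2071 higher in turn. No filter gave 8829 lower and 7969 lower in the comparisons with acinar. The second-brightest probe gave 788 higher and 950 lower, 730 and 785, and 1014 and 843.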
